A study of Mus musculus with 2 samples.

Results

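Classical monocytes that express Ly6c2 and Chil3 were described among the CD45-positive immune cells of mouse liver tumours. A cell was counted as a member when it held at least 200 genes, at most 10% mitochondrial counts, and at least 5 Lyz2, 2 Ly6c2 and 2 Chil3 unique molecular identifiers (UMIs, counted molecules of RNA). It also had to hold under 15 UMIs of C1qa, C1qb and C1qc together, under 5 of Arg1, at most 1 of Cxcl9, at most 1 of Thbs1 and at most 4 of Ngp, and none of Cd209a, Cd3d, Cd3e or Cd3g. This rule found 386 cells among the 19580 that passed the gene and mitochondrial filters, with 196 under anti-PD-1 and 190 under isotype. The tumours grew orthotopically in the liver from Hepa1-6, a hepatoma cell line, in wild-type C57/BL6 mice. Mice were given anti-PD-1, an antibody that blocks an inhibitory receptor of T cells, or an IgG isotype control. Tumours were digested with collagenase and DNase, and live CD45-positive cells were enriched with beads, sorted and sequenced with a 10x Genomics 3′ kit. Each antibody is 1 library, the sources used here do not give the number of mice in each, and the data hold no replicates. No test between the antibodies was therefore possible, and every interval below is a 95% interval that covers counting error only.

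Classical monocytes are short-lived phagocytes that leave the bone marrow through the chemokine receptor Ccr2 and carry the surface protein Ly6C. In blood they can turn into non-classical monocytes, which lose Ly6C and patrol vessel walls, and in tissue or tumour into macrophages or antigen-presenting cells. In tumours they respond to interferon-gamma from T and NK cells, which acts through Irf1 and other transcription factors on guanylate-binding proteins, chemokines and the genes of antigen presentation.

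Members were about as deep in both libraries, with medians of 8706 (1915 to 17669) and 8957 (1972 to 28052) UMIs, 2492 and 2504 genes, and 1.04% and 1.09% mitochondrial counts. The libraries shared 140 of their barcodes, and 0 of the members. The genes of the rule chose the cells, so their levels are a description. Ly6c2 stood at a median of 11.5 UMIs per cell under anti-PD-1 and 12 under isotype, Chil3 at 9 and 11.5, and Lyz2 at 142 and 148.

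The label was compared with markers that the rule did not use. Plac8, a small cysteine-rich protein of myeloid cells, had a UMI in 196 of 196 and 190 of 190 members, at 5420 CPM (counts per 1000000 UMIs, summed over the members of a library) under anti-PD-1 and 4505 under isotype. F13a1, which encodes a subunit of clotting factor XIII, had one in 122 and 128 members, at 337 and 408 CPM. Free RNA in droplets gives stray UMIs, so the same shares were taken after each cell was thinned to 1000 UMIs. F13a1 was then found in 27.0% and 30.0% of members, 0% and 0% of B cells, and 0.344% and 0% of T cells. B cells were not free of Plac8, with 44.9% and 42.0% against 96.9% and 95.3% of members, at median depths of 4336 and 3686 UMIs in B cells. Among the 15 genes that stood highest in members over all other cells, beside Ly6c2, Chil3 and Lyz2 of the rule, were Mgst1, Hp, which encodes haptoglobin, Smpdl3a, Clec4a3, F13a1 and Plac8.

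Markers of most other cells that the sort could hold were at or near 0. No NK cell or red cell gene had a UMI, and of 8 T cell genes only Cd2 had any, at 2.89 and 5.64 CPM. Trac, Cd4 and Cd8a were at 0, as were the Kupffer cell genes Clec4f, Vsig4 and Timd4 and the hepatocyte gene Alb. Neutrophil and granule genes were present and differed between the libraries, with a summed level of 1067 CPM under anti-PD-1 and 2002 CPM under isotype. Plasmacytoid dendritic cell genes summed to 270 and 228 CPM, most of it Bst2, and cDC1 genes to 184 and 232 CPM, most of it Naaa, while Siglech, Xcr1 and Clec9a were at 0. B cell genes summed to 64.3 and 83.5 CPM, most of it Ighm, and 1 isotype member held 38 UMIs of that list. One anti-PD-1 member held 81 UMIs of dendritic cell genes, with 47 of 48 Ccr7 UMIs and 29 of 29 Fscn1 UMIs of its library in a single cell each. The part of such cells in the results below was not tested beyond the values given.

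Most of the rule's cost fell on Thbs1, which encodes thrombospondin-1. It kept out 828 anti-PD-1 and 675 isotype cells that met every other criterion, against 201 and 134 for Chil3, 66 and 67 for Ly6c2, and 36 and 7 for Cxcl9. Of the members and the cells kept out by Thbs1 alone, 80.9% and 78.0% lay beyond that limit. At the edge, members with 1 Thbs1 UMI held 341 and 488 CPM of F13a1 and 5161 and 3898 CPM of Plac8. Cells just outside, with 2 or 3 Thbs1 UMIs, held 354 and 276 CPM of F13a1 and 5033 and 5420 CPM of Plac8. The limit therefore falls inside a range where these markers overlap.

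**Figure D1:**
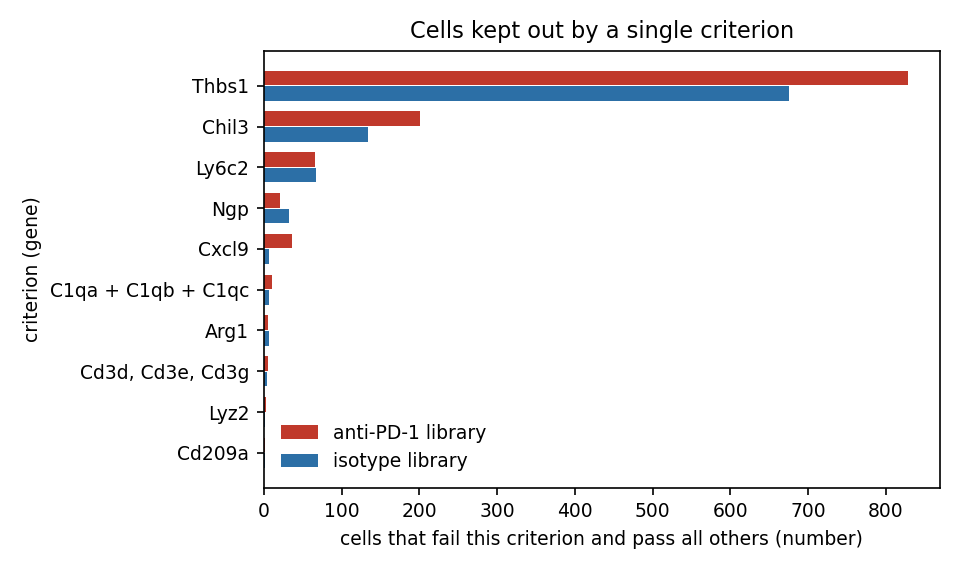
Number of cells (horizontal axis) that failed 1 criterion of the rule and met all others, by criterion (vertical axis) and library (bar colour). The Thbs1 limit kept out 828 and 675 cells, and the Cxcl9 limit kept out 36 anti-PD-1 and 7 isotype cells.

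Classical monocytes made up 1.96% (1.69 to 2.25) of all cells under anti-PD-1 and 1.99% (1.72 to 2.29) under isotype. The difference was -0.0289 percentage points (-0.421 to 0.361), so no difference in their share was detectable at this depth. The Thbs1-positive cells that met all other criteria were 8.27% and 7.06%, a difference of 1.21 points (0.467 to 1.96). These shares are descriptions, because the rule uses genes whose levels can themselves differ between libraries.

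Beside the Thbs1-positive cells, members held less RNA of hypoxia and inflammatory genes in both libraries. This contrast shares its cells with the rule and is given without a test. Genes higher in members in both libraries included Klf2, a transcription factor of quiescent circulating leukocytes, at 546 against 250 CPM under anti-PD-1 and 500 against 240 CPM under isotype. Id3, Atf3, Fos, Jun and Cebpd, all transcription regulators, and the chemokines Ccl4 and Cxcl10 were also higher. Genes lower in members were led by Inhba, a subunit of activin, at 6.95 against 45.5 CPM and 5.07 against 59.9 CPM. The neutrophil chemokine Cxcl3, the lipid droplet proteins G0s2 and Hilpda, the angiogenic factor Vegfa, the cytokine Il1a, the prostaglandin synthase Ptgs2 and the costimulatory ligand Cd80 were lower as well. Of 15 measured glycolysis and hypoxia genes, 15 were lower in members in both libraries, beside 28.0% of all genes, with median log2 ratios of -0.61 and -0.48. Of 17 inflammatory cytokine and NF-kB genes, 12 were lower in both. Of 10 non-classical monocyte genes, 9 were higher in members in both, beside 35.7% of all genes. Fos, Jun and Atf3 also respond to tissue digestion, and 11 of 16 dissociation and stress genes were higher in members in both libraries.

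**Figure D2:**
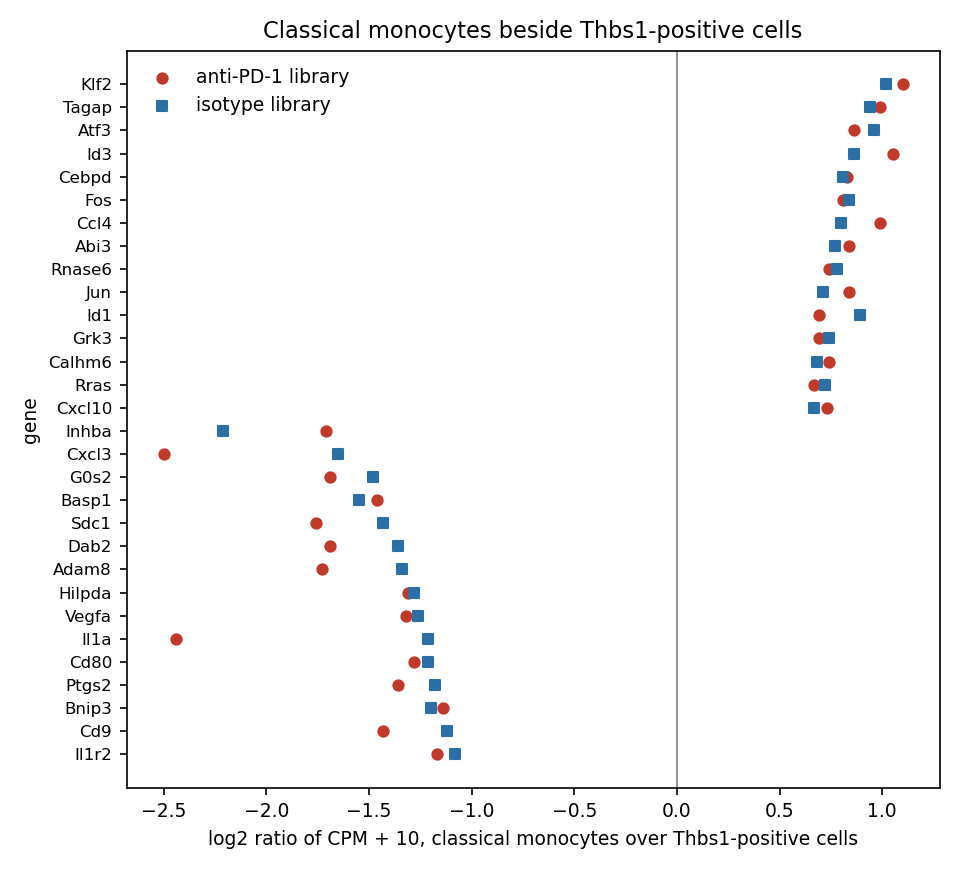
Log2 ratio of CPM with 10 added (horizontal axis) in classical monocytes over Thbs1-positive cells for the 15 genes highest and the 15 lowest in both libraries (vertical axis), in the anti-PD-1 library (circles) and the isotype library (squares). The genes were chosen for lying on the same side in both libraries, and Cxcl3 and Il1a lay further apart between the libraries than the others.

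Genes of the interferon-gamma response had the highest median ratio of the lists with at least 10 measured genes, so the promoters of 6 of them are shown. RefSeq start sites on GRCm38.p6 matched 16 genes of the 24 on the list, with 18 windows from 250 bases before to 50 bases after the start. Both strands were searched for TTCNNNGAA, the pattern of the gamma-activated sequence, and for GAAA followed after any 2 bases by GAAA, the pattern of the interferon-stimulated response element bound by interferon regulatory factors. The lines give the 120 bases before each start, 5′ to 3′ on the strand of the gene, with matches to either pattern in capitals. They are Gbp2 at chr3:142620543-142620662 on the plus strand, Irf1 at chr11:53769894-53770013 on the plus strand, Igtp at chr11:58199436-58199555 on the plus strand, Tgtp2 at chr11:49064213-49064332 on the minus strand, Socs1 at chr16:10785537-10785656 on the minus strand and Ifi47 at chr11:49076467-49076586 on the plus strand.
Gbp2: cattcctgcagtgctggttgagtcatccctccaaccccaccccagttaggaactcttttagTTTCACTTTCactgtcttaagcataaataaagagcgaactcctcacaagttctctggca
Irf1: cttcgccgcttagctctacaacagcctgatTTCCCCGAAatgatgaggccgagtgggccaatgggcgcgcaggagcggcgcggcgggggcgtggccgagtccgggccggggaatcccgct
Igtp: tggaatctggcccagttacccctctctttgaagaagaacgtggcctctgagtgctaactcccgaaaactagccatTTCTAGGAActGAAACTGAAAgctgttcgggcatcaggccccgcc
Tgtp2: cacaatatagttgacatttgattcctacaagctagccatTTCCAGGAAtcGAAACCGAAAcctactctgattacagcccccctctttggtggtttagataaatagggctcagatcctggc
Socs1: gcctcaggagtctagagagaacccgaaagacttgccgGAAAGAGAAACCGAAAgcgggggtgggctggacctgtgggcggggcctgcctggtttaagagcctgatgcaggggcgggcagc
Ifi47: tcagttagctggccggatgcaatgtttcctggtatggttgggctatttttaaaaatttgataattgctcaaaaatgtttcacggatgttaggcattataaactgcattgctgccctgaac

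Irf1 has 1 gamma-activated pattern in the window shown, and Gbp2 has 1 response-element pattern, on the opposite strand to the gene. Another Irf1 window, at chr11:53770223-53770522, has neither pattern and is not shown. Igtp and Tgtp2, which encode immunity-related GTPases, carry both patterns separated by 2 bases, Socs1 carries 2 overlapping response-element patterns, and Ifi47 has no match in its window. Over the list, the gamma-activated pattern was in 8 of 18 windows (44.4%) beside 8.30% of all 32851 windows, and the response-element pattern in 11 (61.1%) beside 3.44%. In all, 13 of 16 genes had either. Such matches describe letters and not bound sites.

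In the members, 20 of 20 measured genes of the interferon-gamma response were higher under anti-PD-1, where 56.6% of all 8923 genes with at least 10 UMIs were higher. Their median log2 ratio was 0.79, and the median over all genes was 0.038. Of the 14 genes with at least 50 UMIs, 9 were at least 1.5-fold higher, beside 4.46% of 5762 genes. The list was 2288 CPM in sum under anti-PD-1 and 1439 CPM under isotype. A list of this kind was known to be higher in myeloid cells of these libraries when it was chosen, so its direction is not independent evidence.

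The guanylate-binding proteins, GTPases that attack membranes of intracellular microbes, were led by Gbp2. It stood at 373 CPM (644 UMIs) under anti-PD-1 and 189 CPM (335 UMIs) under isotype, a log2 ratio of 0.98 (0.79 to 1.18). It was detected in 99 and 92 members, and the ratio was 0.96 without the highest cell of each library. Thinned to 1000 UMIs, 22.4% and 10.5% of members had a Gbp2 UMI, against 10.2% and 7.68% of T cells and 2.04% and 0% of B cells. Before thinning the numbers of Gbp2-positive members were close, but 36.6% and 29.0% of T cells also held a Gbp2 UMI then. The shares of members after thinning (16.8 to 28.9 and 6.55 to 15.8) were further apart, as were the summed levels. Gbp5, which assembles on the inflammasome, was at 63.7 and 33.3 CPM (log2 ratio 0.94, 0.47 to 1.42). Gbp3 and Gbp7 were at 87.4 and 65.4 CPM and at 59.6 and 50.7 CPM, and the interval of Gbp7 included 0 (-0.19 to 0.66).

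Among the immunity-related GTPases, Ifi47 was at 220 and 122 CPM (log2 ratio 0.85, 0.60 to 1.09). Irgm1, a regulator of autophagy, was at 75.2 and 45.1 CPM, and Igtp at 34.2 and 16.4 CPM. Tgtp2 had 35 UMIs in 26 cells under anti-PD-1 and 7 UMIs in 6 cells under isotype (log2 ratio 2.36, 1.17 to 3.78). Its near-identical neighbour Tgtp1 had 4 and 4 UMIs, and counting can split reads between such copies, so both are uncertain.

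Among interferon receptor, JAK-STAT and SOCS genes, 10 of 13 were higher, beside 56.6% of all genes. Their median was 0.089, and 6 intervals lay above 0 and 0 below. Irf1, a transcription factor of the interferon-gamma list and an early target that itself activates later ones, was at 307 and 236 CPM (0.38, 0.19 to 0.57). Socs1, the feedback inhibitor of the receptor's kinases, was at 80.5 and 41.2 CPM (0.97, 0.55 to 1.40), detected in 45 and 37 cells. The receptor chains Ifngr1, at 273 and 286 CPM, and Ifngr2, at 112 and 121 CPM, had intervals that included 0, as did Jak2. Tyk2 and Stat2 were higher at 43.4 against 25.4 CPM and 52.1 against 32.7 CPM. Cd274, which encodes PD-L1, was at 116 and 108 CPM (0.10, -0.19 to 0.40), the smallest ratio among the 20 measured genes of the interferon-gamma list.

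Cxcl10, a chemokine that draws T cells through Cxcr3, was at 492 and 297 CPM (0.73, 0.57 to 0.89) with UMIs in 52 and 52 members. One anti-PD-1 cell held 157 of its 850 UMIs, and the ratio was 0.61 without the highest cell of each library. After thinning to 1000 UMIs, 11.7% and 13.7% of members had a Cxcl10 UMI, fewer than the 27.0% and 40.4% of T cells, so that share is not read as expression. Its higher level under anti-PD-1 lay in a small number of cells with many UMIs.

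The Cxcl9 limit of the rule bears on this list, since Cxcl9 is itself a target of interferon-gamma. It kept out 36 anti-PD-1 and 7 isotype cells. With those cells included the median log2 ratio of the list was 1.36.

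**Figure D3:**
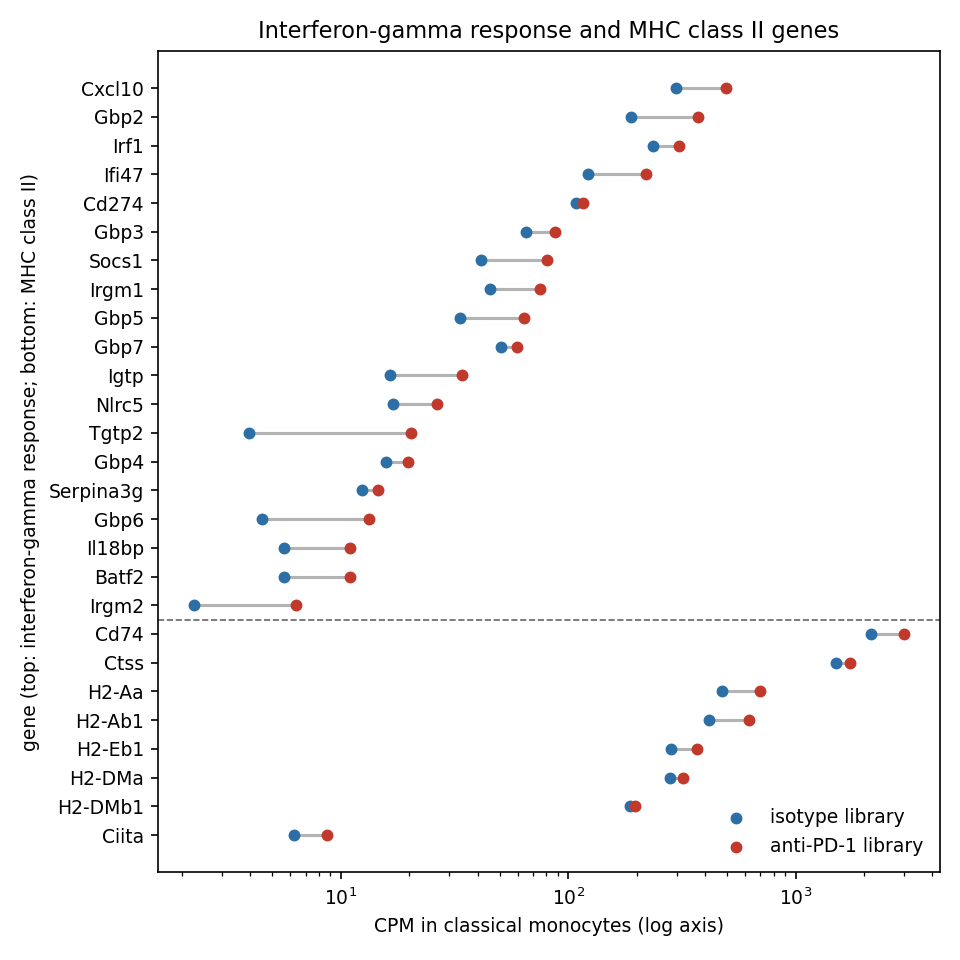
Summed level in classical monocytes in CPM (horizontal axis, logarithmic) of measured interferon-gamma response genes (1 of the 20 is not shown) and 8 MHC class II genes (vertical axis, above and below the dashed line) in the isotype and anti-PD-1 libraries. All genes shown are further right in the anti-PD-1 library, by little in Cd274 and H2-DMb1.

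Cell by cell, the difference lay in the upper part of the distribution. Each member was thinned to 2000 UMIs, which left out 1 cell in each library, and its interferon-gamma response UMIs were counted. The median was 2.00 in both libraries, the 75th percentile was 6.00 and 4.00, the 90th percentile was 10.6 and 7.00, and the mean was 4.51 and 2.95. At least 10 such UMIs were found in 22 anti-PD-1 cells (11.3%) and 9 isotype cells (4.76%), while 39 and 42 cells had none. The 10 highest cells held 28.6% and 25.8% of the list's UMIs, so a few cells did not hold most of it in either library.

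**Figure D4:**
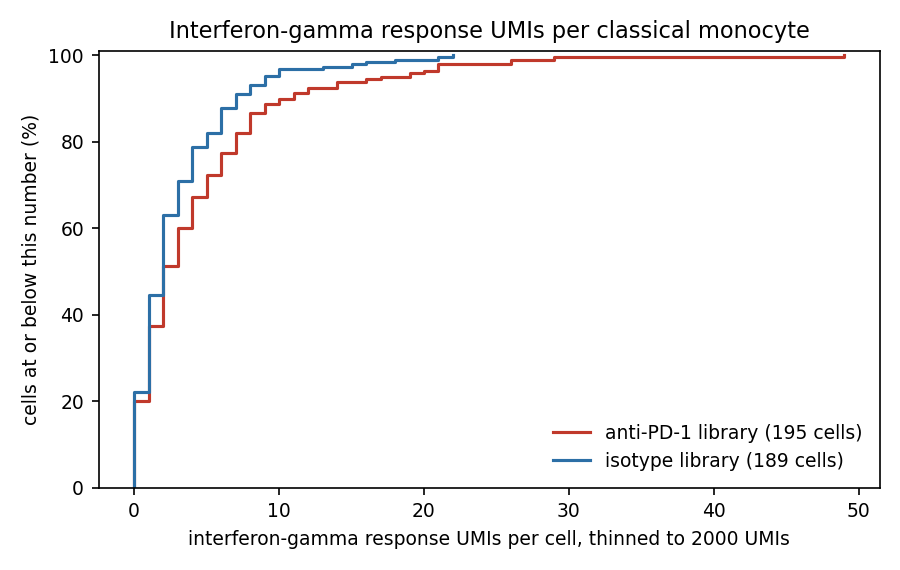
Share of classical monocytes (vertical axis, %) with at most a given number of interferon-gamma response UMIs (horizontal axis) after thinning each cell to 2000 UMIs, in the anti-PD-1 (195 cells) and isotype (189 cells) libraries. The curves start together near 20% at 0 UMIs and separate above a few UMIs, where the anti-PD-1 library has more cells with high numbers.

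Type I interferon-stimulated genes were also higher under anti-PD-1 in 18 of 19 measured cases, beside 56.6% of all genes, with a median log2 ratio of 0.65. Of the 15 with at least 50 UMIs, 6 were at least 1.5-fold higher, beside 4.46% of all genes. Isg15, a ubiquitin-like modifier, was at 331 and 245 CPM (0.43, 0.25 to 0.61), detected in 140 and 113 cells. Irf7, the regulator that amplifies the type I response, was at 245 and 166 CPM (0.56, 0.34 to 0.78), and Rsad2, the antiviral protein viperin, at 44.0 and 21.4 CPM (1.04, 0.46 to 1.64). Ifit3 was at 22 and 6.20 CPM, with 19 of 38 anti-PD-1 UMIs in 1 cell. Oas3 was at 33.0 and 32.7 CPM and Xaf1, the 1 gene on the other side of 0, at 64.3 and 64.8 CPM. Many of these genes respond to both kinds of interferon, and Ifnar1 and Ifnar2 had intervals that included 0.

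MHC class I and peptide loading genes were higher in 16 of 16 cases, beside 56.6% of all genes, with a median log2 ratio of 0.30 and a range from 0.15 to 0.58, and none of the 15 with at least 50 UMIs reached 1.5-fold. H2-K1, a classical class I heavy chain, was at 1124 and 854 CPM (0.40, 0.30 to 0.49), with a UMI in 196 of 196 and 188 of 190 cells. B2m, the light chain, was at 2414 and 2104 CPM, and Tap1, a subunit of the peptide transporter, at 163 and 130 CPM. Psmb8 and Psmb9, subunits of the immunoproteasome, were at 667 and 557 CPM and at 239 and 200 CPM. Class I heavy chains are close copies of each other, and counting could split their reads.

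MHC class II genes, which present peptides to CD4 T cells, were higher in 8 of 8 cases, beside 56.6% of all genes, with a median log2 ratio of 0.44, and none of the 7 with at least 50 UMIs reached 1.5-fold. The median was 0.049 when Ly6c2 and Chil3 had to reach 5 UMIs and 0.98 with no limit on Cxcl9. Cd74, the invariant chain, was at 3005 and 2150 CPM (0.48, 0.42 to 0.54). H2-Ab1 was at 622 and 418 CPM (0.57, 0.44 to 0.71), with UMIs in 77 and 48 cells, and H2-Aa at 698 and 475 CPM (0.55, 0.43 to 0.68), with UMIs in 59 and 46 cells. Expression was uneven between cells. At least 10 UMIs of H2-Aa, H2-Ab1 and H2-Eb1 together were found in 46 anti-PD-1 members (23.5%, 17.7 to 30.0) and 28 isotype members (14.7%, 10.0 to 20.6), and 110 (56.1%) and 126 (66.3%) had none. Thinned to 1000 UMIs, 20.4% and 15.8% of members had an H2-Aa UMI, against 2.58% and 2.76% of T cells. Over all 8 class II genes, which include Cd74, 67 (34.4%) and 41 (21.7%) members held at least 10 UMIs after thinning to 2000. That set is wider than H2-Aa, H2-Ab1 and H2-Eb1, and only 3 and 4 cells held none of it.

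Members were split by their own Ly6c2 UMIs into cells with 2 to 4 (40 in each library), 5 to 9 (47 anti-PD-1 and 44 isotype) and 10 or more (109 and 106). Since Ly6c2 chose the cells and deeper cells have more of it, this split is a description. Cells with 10 or more held more F13a1, at 454 and 566 CPM against 136 and 139 CPM in the lowest range, and more Hp, at 1386 and 1433 against 532 and 746 CPM. They held less H2-Aa, at 447 and 126 against 1815 and 1133 CPM, and less Ace, a non-classical monocyte gene, at 44.7 and 38.4 against 143 and 175 CPM. Median depths were 9356 and 9591 UMIs in the highest range and 7302 and 8023 in the lowest.

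The interferon-gamma list had a median above 0 in every range, at 0.56, 0.70 and 0.80 from low to high Ly6c2. Higher under anti-PD-1 were 12 of 16, 12 of 16 and 19 of 19 genes, beside 56.6% of all genes over all members. Cxcl10 went the other way in the middle range, at 138 and 300 CPM (-1.12). The class II list was not: its medians were 0.51, -0.54 and 1.36, and in the middle range 1 of 8 genes was higher under anti-PD-1. H2-Aa in that range was at 564 and 944 CPM. The 10 cells with the most class II UMIs, over all ranges and after thinning, held 30.8% and 37.3% of them, and the difference between the ranges was not tested. The type I list was at 0.59, 0.072 and 0.70, and the class I list at 0.28, -0.0019 and 0.39. In the middle range both were near 0.

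Genes of monocyte identity had no common direction. Of 12 classical monocyte genes outside the rule, 6 were higher and 6 lower under anti-PD-1, where 56.6% of all genes were higher. Their median was 0.020, in a range from -0.28 to 0.27, and none was at 1.5-fold. The interval lay above 0 in 5 of them and below 0 in 2. Ccr2, the exit receptor, was at 449 and 404 CPM (0.15, 0.0055 to 0.30). Vcan, Hp and Fn1 had intervals that included 0. Chemokine receptors and adhesion molecules had a median of 0.0043, with Ccr1 higher at 268 against 212 CPM (0.34, 0.14 to 0.54) and Cd44 at 721 and 792 CPM. Of 17 transcription factors of the lineage, 11 were higher, beside 56.6% of all genes, with a median of 0.14 and 5 intervals above 0 and 0 below. Cebpd was at 149 and 118 CPM (0.33, 0.061 to 0.60), while Spi1, at 582 and 582 CPM, and Cebpb, at 4014 and 4037 CPM, had intervals that included 0.

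Non-classical monocyte genes had a median of -0.061 with 5 of 10 higher, beside 56.6% of all genes. Ace, Treml4 and Adgre4 had intervals that included 0, at 94.9 and 84.0, 53.3 and 46.2, and 41.1 and 36.7 CPM. Spn, which encodes CD43, was lower at 24.3 against 48.5 CPM (-1.0, -1.56 to -0.45), as was Pou2f2 at 83.9 against 118 CPM. At least 3 UMIs of Ace, Treml4, Adgre4, Cd300e and Eno3 together were found in 50 anti-PD-1 members (25.5%) and 37 isotype members (19.5%). Members without those cells gave an interferon-gamma median of 0.56.

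Macrophage maturation genes were higher in 15 of 15 cases, beside 56.6% of all genes, with a median of 0.25. Of the 12 with at least 50 UMIs, 3 were at least 1.5-fold higher, beside 4.46% of all genes. Apoe, a lipid carrier of maturing macrophages, was at 588 and 364 CPM (0.69, 0.55 to 0.84) with UMIs in 114 and 104 cells. Fcgr1, the high-affinity IgG receptor and also an interferon target, was at 164 and 112 CPM (0.55, 0.28 to 0.81). Fcgr4, a gene of the Fc receptor list and not of the maturation list, was at 83.9 and 51.9 CPM (0.69, 0.31 to 1.09). Csf1r was at 463 and 394 CPM, while Trem2 and Ctsd were at 94.9 and 94.2 CPM and at 335 and 330 CPM. C1q genes were at 0 in 185 and 177 members, and those members alone gave a maturation median of 0.37 and an interferon-gamma median of 0.77.

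Spp1, which encodes osteopontin, had the largest ratio of the named genes, at 108 UMIs in 13 anti-PD-1 cells against 12 UMIs in 10 isotype cells (log2 ratio 3.21, 2.34 to 4.20). The number of cells was close and the amount per cell was not, with up to 26 UMIs in an anti-PD-1 cell and at most 2 in an isotype cell. Spp1 was at 62.5 and 6.77 CPM in members, 56.4 and 32.6 CPM in T cells and 2.79 and 6.25 CPM in B cells. The part of free RNA in its ratio was not tested. When cells beyond the Thbs1 and Arg1 limits were included, the log2 ratio of Spp1 was -0.23. Ccl24, a chemokine for eosinophils that macrophages make, lay in the opposite direction, at 61 UMIs in 8 cells against 435 in 18 (-2.80, -3.21 to -2.41). One isotype cell held 211 of these UMIs, and the ratio was -3.07 without the highest cell of each library. The gene for Spp1 lies at chr5:104435118-104441050 and that for Ccl24 at chr5:135569937-135573049 in GENCODE vM21 on GRCm38.

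Inflammatory cytokine and NF-kB genes were mixed, with 11 of 17 higher, beside 56.6% of all genes, and a median of 0.20. Higher were Il1b, at 2439 and 2091 CPM (0.22, 0.16 to 0.29), Tnf, at 111 and 81.2 CPM, Ccl2, the ligand of Ccr2, at 582 and 449 CPM, and Ccl4, at 970 and 771 CPM. Lower were the neutrophil chemokines Cxcl2, at 1308 and 1752 CPM (-0.42, -0.50 to -0.34), and Cxcl3, at 79.9 and 156 CPM (-0.96, -1.27 to -0.66), and Il1a, at 15 and 49.1 CPM. Both Cxcl3 and Il1a also marked the Thbs1-positive cells, and members with no Thbs1 UMI were 78.6% and 71.1% of their libraries. In those members the log2 ratio of Cxcl3 was 0.16 and that of Il1a -1.16, and with no limits on Arg1 and Thbs1 that of Il1a was 0.20. Ccl7, a second Ccr2 ligand, was at 63.7 and 29.3 CPM but in only 12 and 12 cells, with 41 of 110 anti-PD-1 UMIs in 1 of them. Nfkbia was at 2549 and 2543 CPM.

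Checkpoint and costimulatory ligands had a median of 0.025 with 6 of 10 higher, beside 56.6% of all genes. The interval of each measured gene included 0. Cd80 was at 34.7 and 36.1 CPM, Cd86 at 55.0 and 58.6 CPM and Lgals9 at 189 and 183 CPM. Phagocyte oxidase and antimicrobial genes (median -0.023) and glycolysis and hypoxia genes (median -0.0052) also had medians near 0. Pattern recognition genes had a median of 0.15, with Tlr4, the endotoxin receptor, at 48.0 and 25.9 CPM (0.89, 0.35 to 1.44) and its co-receptor Cd14 at 1829 and 1965 CPM. Hmox1, which breaks down haem, was at 186 and 115 CPM (0.70, 0.44 to 0.96).

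Proliferation genes were lower under anti-PD-1 in 10 of 10 cases, with a median log2 ratio of -1.34, where 56.6% of all genes were higher. The numbers are small. Mki67 had 6 UMIs in 5 anti-PD-1 cells and 27 UMIs in 13 isotype cells (2.55%, 0.833 to 5.85, against 6.84%, 3.69 to 11.4, of members). Stmn1 was at 18 and 52 UMIs, and 1 isotype cell held 12 of the 18 isotype UMIs of Pclaf. The median was -0.46 with members thinned to 2000 UMIs and -0.51 over the 3 genes with at least 50 UMIs. It was -0.87 with no limits on Arg1 and Thbs1 and -0.72 without cells that held at least 5 UMIs of S100a8 and S100a9. The summed level of the list was 432 and 612 CPM. Among Thbs1-positive cells, where 58.7% of all genes were higher, 13 of 14 proliferation genes were lower as well, with a median of -0.97.

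Granule and neutrophil genes were lower in 10 of 11 cases, where 56.6% of all genes were higher, with a median of -0.55. That median was 0.25 with no limits on Arg1 and Thbs1, -0.23 with each cell's CPM averaged and -1.36 with doublets removed. S100a8, a subunit of calprotectin, was at 355 and 806 CPM (-1.18, -1.32 to -1.04) in 39 and 57 cells, and S100a9 at 289 and 593 CPM in 20 and 32 cells. The highest cell of each library held 147 of 614 and 285 of 1429 S100a8 UMIs. For S100a9 it held 173 of 499 and 399 of 1051. Cells with at least 5 UMIs of both together were 20 (10.2%) and 22 (11.6%) of members. After thinning, 9.18% and 10.5% of members had S100a8, against 4.82% and 4.72% of T cells. Single cells mattered: 51 of 66 isotype UMIs of Elane, the neutrophil elastase that early monocyte precursors also make, and 106 of 286 of Prtn3 lay in 1 cell each. Without the highest cell of each library Prtn3 had a ratio of 0.050, and Elane of -0.42.

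Over all 5762 genes with at least 50 UMIs, 257 (4.46%) were at least 1.5-fold higher under anti-PD-1 and 139 (2.41%) at least 1.5-fold lower. Of the 12 highest named genes, Gbp2 and Ifi47 belong to the interferon-gamma list. AW112010, an interferon-inducible transcript, was at 131 and 60.3 CPM (1.12, 0.78 to 1.46) in 87 and 59 cells. Ly6a, which encodes Sca-1, was at 80.5 and 26.5 CPM (1.6, 1.12 to 2.11) in 39 and 16 cells, and its gene lies at chr15:74994877-74998031 on the minus strand. After thinning, 6.63% and 1.58% of members had a Ly6a UMI, far below the 54.4% and 52.8% of T cells and 46.9% and 32.0% of B cells. Both groups hold much Ly6a, so neither shows how many stray UMIs members have, and that share is not read as expression. The log2 ratio of Ly6a was 0.067 in T cells and 0.98 in B cells. AW112010 was likewise abundant in T cells, at 2303 and 2165 CPM. Cfb, complement factor B, was at 55.6 and 25.4 CPM (1.13, 0.61 to 1.68) in members and at 0.167 and 0.247 CPM in T cells. Bag3 and Hspa1a, which act in protein folding under heat or digestion stress, were at 94.4 and 46.2 CPM and at 653 and 395 CPM, in 69 and 62 and in 62 and 63 cells. The dissociation and stress list as a whole had 12 of 16 genes higher, beside 56.6% of all genes, and a median of 0.22. Hspa1b, a near-identical copy of Hspa1a, was at 321 and 192 CPM. Selenoi had 29 of its 45 anti-PD-1 UMIs in 1 cell and a ratio of 0.57 without the highest cells, down from 1.83.

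Brd1 was higher under anti-PD-1 in T and B cells as well as in members, and Ppp2cb in T cells. Brd1, a chromatin reader, was at 46.3 and 19.2 CPM in members (1.27, 0.68 to 1.90), and its log2 ratio was 1.42 in B cells and 0.96 in T cells. Ppp2cb, a phosphatase subunit, was at 174 and 90.8 CPM (0.94, 0.65 to 1.22), with 1.00 in T cells and 0.061 in B cells.

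The lowest named genes included Atp5k, Crip1 and Anapc13. Atp5k, a subunit of ATP synthase, was at 72.4 and 140 CPM (-0.96, -1.28 to -0.64) and Crip1, a LIM domain protein, at 2560 and 3827 CPM (-0.58, -0.64 to -0.53). Anapc13, a subunit of the anaphase-promoting complex, was at 65.4 and 114 CPM. All 3 were also lower in B cells, at -0.48, -0.27 and -0.92, and in T cells, at -0.67, -0.15 and -0.36. Most of the short transcripts measured were lower. In members, where 56.6% of all genes were higher, 65 of 83 ribosomal protein genes were lower, with a median of -0.11. So were 48 of 57 other protein-coding genes with no transcript over 600 bases, with a median of -0.24. In T cells these counts were 61 of 85 and 62 of 84, and in B cells 67 of 76 and 29 of 36. The share of all genes in T and B cells is not given here. The part of transcript length in the ratios of single genes was not tested. Lars2 was at 2058 and 3106 CPM, but 1 isotype cell held 1397 of 5509 UMIs, and the ratio moved from -0.59 to -0.23 without the highest cells. Gdpd3, Ckb, Paxbp1 and Dus1l were lower at under 60 CPM in either library.

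The members were set beside 4 neighbouring groups of Lyz2-positive cells. These were Thbs1-positive cells (828 anti-PD-1 and 675 isotype), Cxcl9-positive cells (372 and 168), C1q-high cells (158 and 133) and non-classical monocytes (70 and 59). All kept the limits on Ngp, Cd209a and Cd3 genes, all kept the Arg1 limit, and all but the first the Thbs1 limit. Cxcl9-positive cells held at least 2 Cxcl9 UMIs, C1q-high cells at least 15 of the C1q genes with at most 1 of Cxcl9, and non-classical monocytes at most 1 each of Ly6c2, Chil3 and Cxcl9 with at least 3 of Ace, Treml4, Adgre4, Cd300e and Eno3. Differences between the groups' ratios were not tested. The interferon-gamma list was higher under anti-PD-1 in each of them, in 23 of 23, 23 of 23, 21 of 21 and 17 of 19 genes, where 58.7%, 62.5%, 52.8% and 55.0% of all genes were higher. Its medians were 0.79, 0.89, 0.98 and 1.03, so the 0.79 of the members was not larger than in any neighbour. Ly6a was also higher in each, with ratios from 0.96 to 2.47.

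The type I list had a median of 0.65 in members and of 0.26, 0.061, 0.066 and 0.16 in the neighbours, in the same order. The class II list was higher in 8 of 8 genes in the Thbs1-positive cells (0.57) and the non-classical monocytes (0.20), and in 3 of 8 in Cxcl9-positive cells (-0.050) and 1 of 8 in C1q-high cells (-0.32). Levels differed widely: the class II genes summed to 6957 and 5310 CPM in members, 6874 and 4966 CPM in Thbs1-positive cells, and 33475 and 41647 CPM in C1q-high cells. Members and Thbs1-positive cells thus shared both a low level and a higher value under anti-PD-1.

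**Figure D5:**
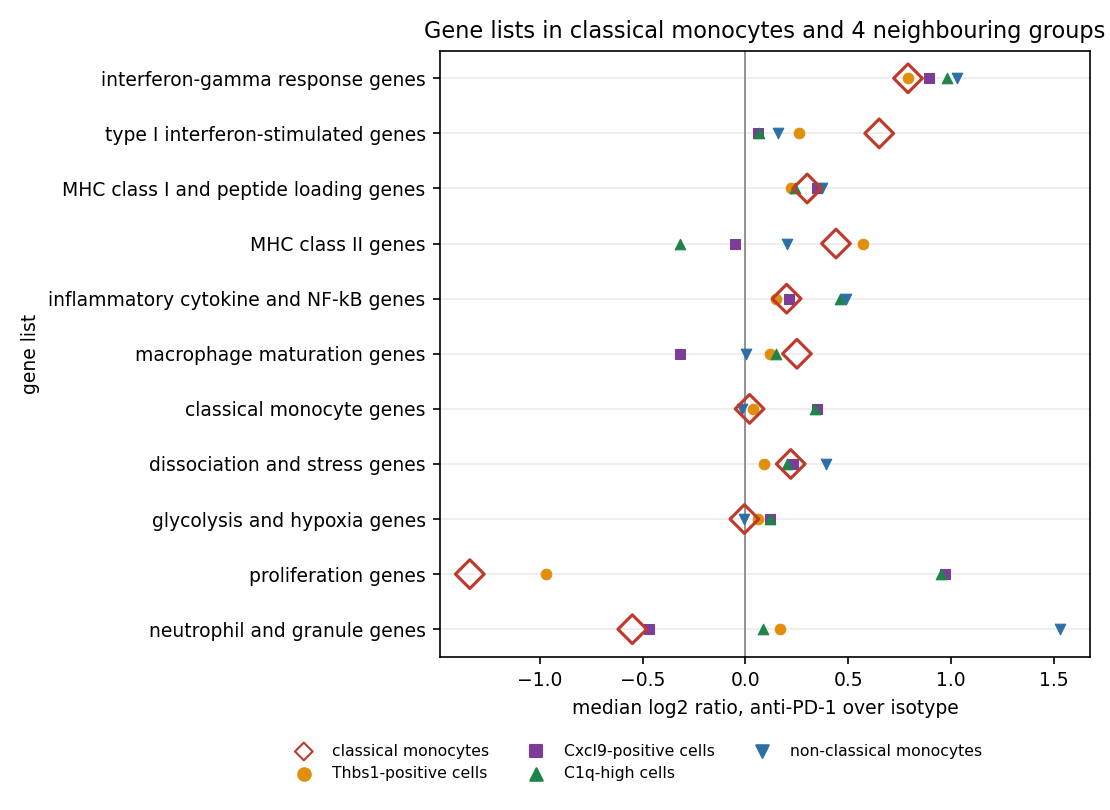
Median log2 ratio, anti-PD-1 over isotype (horizontal axis), of 11 gene lists (vertical axis) in classical monocytes (open diamonds) and 4 neighbouring groups of cells (filled symbols). The interferon-gamma list lies between 0.79 and 1.03 in all 5 groups, while proliferation genes lie at -1.34 in classical monocytes and 0.97 in Cxcl9-positive cells.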

How the data were processed

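The authors deposited UMI counts, not normalized, for 32285 features in each barcode. Per the file headers the counts came from Cell Ranger 5.0.1; per the submitters' processing notes, from Cell Ranger 2.1.1 on mm10. How cells were called is not stated in these sources. The anti-PD-1 library held 72148493 UMIs and the isotype one 67520433. The 10149 and 9683 barcodes were filtered to 10014 and 9566. Rows that share a symbol were summed (40). Members, neighbours, gene lists and the rule for named genes were chosen with earlier results of these data known, and the Thbs1-positive group was added after the counts were seen. Dense tables deposited for the same libraries were not used.

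UMIs were summed over the members of each library and scaled to CPM of their total. Log2 ratios are anti-PD-1 over isotype, with exact conditional binomial 95% intervals; shares have exact Clopper-Pearson and their differences Newcombe intervals. UMIs are not independent of their cell, so these intervals cover counting error only. A list median takes genes with at least 10 UMIs over both libraries, and 1.5-fold counts those with at least 50. Genes with 0 UMIs in 1 library got no ratio. Named genes are the 12 highest and 12 lowest by the interval bound nearest to 0, with at least 50 UMIs and 20 CPM, without genes of the rule, mitochondrial, ribosomal, haemoglobin, sex-linked, receptor segment and unnamed genes and markers of other cells; every list gene could be named too. B cells (Cd79a of at least 2) and T cells (Cd3 genes of at least 2) with under 5 Lyz2 UMIs served as background. Doublets were kept and removed only in an alternative: scrublet (scanpy 1.11.5, expected rate 0.06) marked 0 cells by its automatic threshold, so scores above 0.25 were used, which marked 3.13% and 3.02% of cells and 5 members in each library. The interval function was run on simulated counts that are independent of each other, as the interval itself assumes. That run leaves out the clustering of UMIs in cells, so it does not test the intervals for these data. Python 3.11.15, numpy 2.4.6, scipy 1.17.1, pandas 2.3.3 and statsmodels 0.14.6 were used. Positions come from GENCODE vM21, where 368 of 368 identifiers were found. Some members of the lists are counted but not reported singly here.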

Additional observations from a re-analysis of the deposited data

Results flagged for a closer look

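Some gene lists had median log2 ratios (anti-PD-1 over isotype) of at least 0.2 on opposite sides of 0 in the classical monocytes and in a neighbouring group of cells. These differences were not tested, each rests on 1 library per antibody, and no explanation was weighed. The proliferation list stood at -1.34 in the monocytes, at 0.97 in Cxcl9-positive cells and at 0.95 in C1q-high cells, while Thbs1-positive cells, at -0.97, lay on the side of the monocytes. The MHC class II list stood at 0.44 in the monocytes and at -0.32 in C1q-high cells. For macrophage maturation genes the values were 0.25 in the monocytes and -0.32 in Cxcl9-positive cells. The suppressive and repair genes were at 0.27 in the monocytes and -0.25 in non-classical monocytes, of which the libraries hold 70 and 59. The first value was 0.012 over genes with at least 50 UMIs, 0.075 with no limits on Arg1 and Thbs1 and 0.12 with Ly6c2 and Chil3 of at least 5 UMIs. Neutrophil and granule genes were at -0.55 in the monocytes and 1.53 in non-classical monocytes. Dendritic cell genes were at 0.79 in the monocytes, -1.43 in Thbs1-positive cells and -1.41 in C1q-high cells, and 1 anti-PD-1 monocyte held 81 UMIs of that list.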

How the results depend on the processing

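No paired analysis was possible because each antibody has 1 library, and no library could be left out. The interferon-gamma median was above 0 in 20 of 20 alternatives, from 0.56 without members that carry non-classical genes to 1.36 with no limit on Cxcl9. The type I (0.38 to 0.82) and class I (0.21 to 0.46) medians stayed above 0 in 20 of 20 as well. The mitochondrial limit of 20% and the minimum of 500 genes kept the same 196 and 190 members, so they could not change any of these medians. The class II median, 0.44 as reported, was 0.049 with Ly6c2 and Chil3 of at least 5 UMIs, 0.98 with no limit on Cxcl9 and 1.36 with Ly6c2 of at least 10. The difference in share was 1.25 points with no limits on Arg1 and Thbs1, which let in the Thbs1-positive cells. The counts of genes at least 1.5-fold higher and lower were 257 and 139 as reported. With members thinned to 2000 UMIs (fewer genes tested) they were 94 and 65, or 4.35% and 3.01% of 2161 genes. From 200 UMIs they were 32 and 21, or 1.33% and 0.871% of 2412 genes. With no minimum they were 1479 and 1163, or 13.8% and 10.8% of 10740 genes. Centring on the median of all genes gave 3.52% higher and 3.11% lower in place of 4.46% and 2.41%. The proliferation median was 0.016 without cells that held a Mki67 UMI, which leaves cells out by a gene of that list. The neutrophil median was -1.36 with doublets removed, 0.25 with no limits on Arg1 and Thbs1, -0.23 with each cell's CPM averaged, -1.47 with Ly6c2 of at least 10 and -0.22 without Mki67 cells; beyond the cells let in or left out, the cause was not tested. The 24 named genes had 432 values under alternatives. Of these, 375 lay inside the reported interval of their gene, 53 lay outside it with the same sign, and 4 changed sign. Spp1 was at -0.23 and Il1a at 0.20 with no limits on Arg1 and Thbs1. Stmn1 was at 0.80 without Mki67 cells and Cxcl3 at 0.16 with Thbs1 at 0. The settings on Thbs1 at 0, C1q at 0, Ly6c2 of at least 10, S100a8 and S100a9, non-classical genes and Mki67 were chosen after seeing the data. With 1 library per antibody, a difference between mice cannot be told apart from one between antibodies.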
